A study of Danio rerio with 6 samples.

Results

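ERbeta2 MO embryos were compared with coMO embryos across all genes that the array measures. ERbeta2 MO embryos were zebrafish embryos (Danio rerio) injected with a morpholino designed to block translation of the estrogen receptor ERbeta2, and coMO embryos were injected with a standard control morpholino. Both morpholinos were given at 50 uM, up to the 4-cell stage, in eggs collected from more than 1 aquarium and mixed. The embryos were raised at 28 °C and taken whole at 72 h after fertilization. The comparison uses 4 of the 6 arrays of the series, 2 of ERbeta2 MO and 2 of coMO, and the 2 arrays of uninjected embryos of the same age entered the estimate of spread and the mean signal over 6 arrays, and are printed beside some genes with no test. It covers all 15502 probe sets that are not controls, of 15617 on the array. A probe set is a group of short probes for 1 transcript, and its signal is a relative intensity, so signals are compared between arrays and not between genes. Replicates are titled biological, but nothing states whether they came from separate spawnings, and p-values then cover only how far these arrays differ, which may be technical. Neither the receptor protein nor the block of its translation was measured, and the design has 1 morpholino sequence at 1 dose, with no rescue.

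A morpholino is a synthetic antisense oligonucleotide that pairs with a messenger RNA and keeps the ribosome from starting on it, so the message itself can stay in place. Estrogen receptors are transcription factors that bind steroid hormone and then act at target genes. At the age studied the embryo is hatching, its liver, pancreas and gut are starting to work, its photoreceptors are taking on their pigments, and the sense organs of the lateral line, which the series title names, are in place. In whole embryos fewer cells of a type and less RNA per cell cannot be told apart.

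The ERbeta2 MO arrays stood apart from the other 4. Pearson's r over all probe sets was 0.975 to 0.987 between arrays of 1 group, 0.902 to 0.908 between ERbeta2 MO and coMO arrays, and 0.971 to 0.979 between coMO and uninjected arrays. Probe sets are not replicates, so these values only describe the arrays. The GAPDH control probe sets read both ends of that message, and the 3' signal grows relative to the 5' signal when RNA is degraded or labelled short. This ratio was 2.14 and 2.15 in ERbeta2 MO against 1.66 and 1.34 in coMO. Poly-A spike probe sets read RNAs that are meant to be added from outside in fixed amounts. Their mean log2 signal was 6.84 and 6.59 in ERbeta2 MO against 7.50 and 7.78 in coMO. Whether these RNAs were added here, and in what amount, is not given, so scaling on them rests on that assumption. Both measures moved with every difference described below, and their part in those differences was not tested.

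The response took in a large share of the array. Of 15502 probe sets, 6333 passed a Benjamini-Hochberg adjusted p of 0.05 in limma, which is 40.9%. The 2794 that were higher in ERbeta2 MO make up 18% of all, and the 3539 that were lower 22.8%. An unadjusted p below 0.05 was found for 7564. For 71.8% of all probe sets both ERbeta2 MO arrays lay above or below both coMO arrays.

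Under the deposited scaling falls were larger than rises. Sizes and signal bins in this paragraph were counted under that scaling alone. Scaling on the poly-A spikes moved the median log2 difference from -0.12 to 0.80, and sizes were not counted again there. At least 2-fold changes were found in 2514 of the called probe sets, which is 16.2% of all. They numbered 859 higher (5.54%) and 1655 lower (10.7%). At least 4-fold changes numbered 67 higher and 317 lower, and at least 16-fold changes 3 and 61. Among the 10846 probe sets with a mean signal of at least 100, the group means were at least 2-fold apart for 18%, while the replicates of ERbeta2 MO, of coMO and of uninjected embryos were that far apart for 0.221%, 0.378% and 0.341%. Rises and falls also lay at different signal levels, as 5 bins of equal size by mean signal show. In the lowest bin, up to a mean of 62.1, 1.29% were higher and 11.3% lower in ERbeta2 MO, and in the highest bin, from 738, 34.1% were higher and 28% lower. The mean takes in the ERbeta2 MO arrays, so a change itself helps to set the bin of a probe set. The called probe sets at the lowest and at the highest mean signal both fell and carry no gene name here. The lowest had signals of 6.75 and 1.87 in ERbeta2 MO against 41.4 and 21.9 in coMO, and the highest 51780.3 and 49168 in ERbeta2 MO against 67186 and 76619 in coMO.

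**Figure D1:**
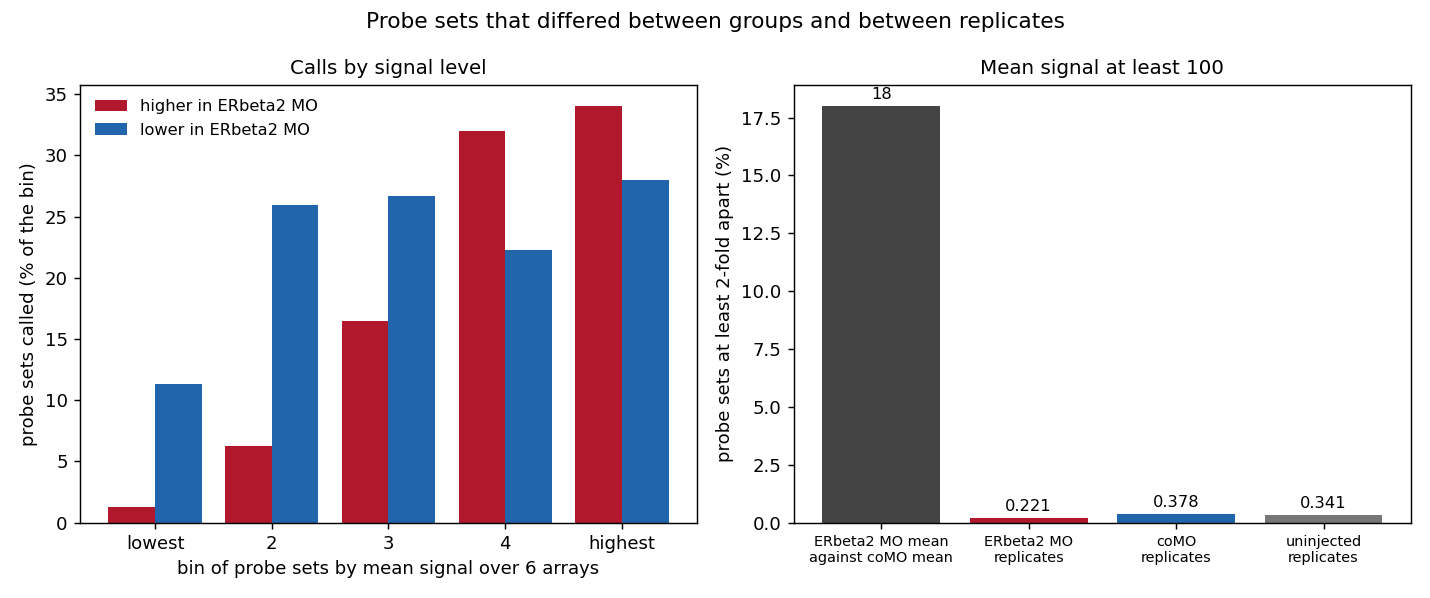
The left panel gives the percent of probe sets called higher (red) and lower (blue) in ERbeta2 MO within each of 5 equal bins of the mean signal over the 6 arrays, and calls in the lowest bin are mostly falls. The right panel gives the percent of probe sets with a mean signal of at least 100 that were at least 2-fold apart, 18% between ERbeta2 MO and coMO means and 0.221% to 0.378% between replicates of a group.

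The balance of rises and falls depended on how arrays were scaled. With quantile normalization 2930 probe sets were higher and 2643 lower, with median centring of the arrays 3761 and 2571, with scaling on the hybridization controls 5480 and 1106, and with scaling on the poly-A spikes 8002 and 506. Over all probe sets the median log2 difference was -0.12 as deposited, and 0.05, 0.04, 0.40 and 0.80 under these 4 scalings. Differences below are relative to the deposited scaling. Beside most lists that fell stands the count that still passed as lower with the poly-A spikes. Sums over markers are given under the deposited scaling alone.

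**Figure D2:**
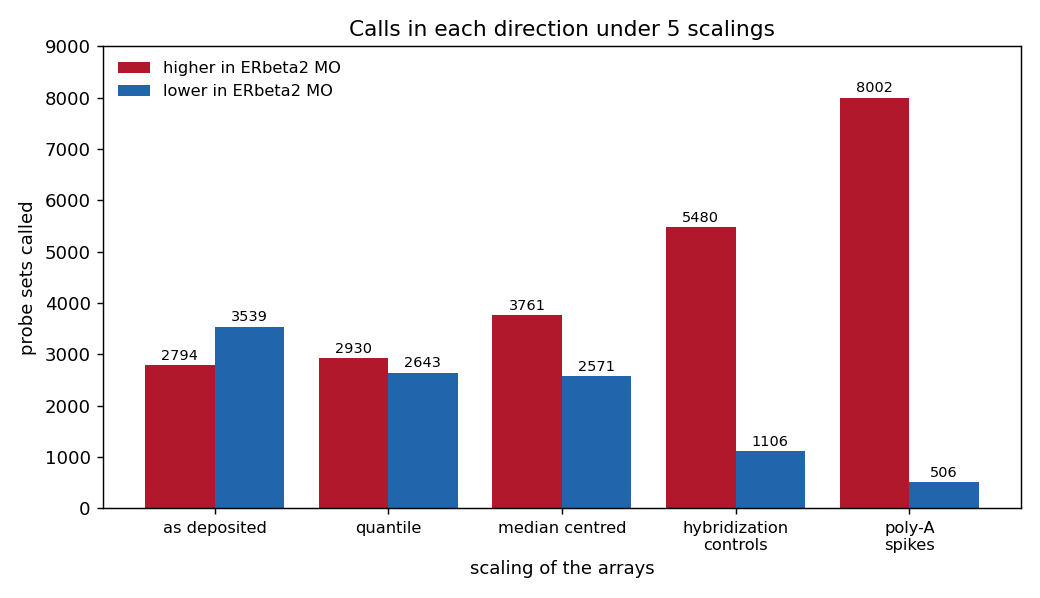
Bars give the number of probe sets called higher (red) and lower (blue) in ERbeta2 MO under the deposited scaling and 4 others. There were 2794 calls higher and 3539 lower as deposited, and 8002 and 506 when arrays are scaled on the poly-A spikes.

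Names were available for 1821 of the probe sets, standing for 1668 genes, and only because the authors' 3 comparison tables list them at a 2-fold difference on these same arrays. Calls among them are therefore frequent by construction: 93.6% passed, 47% higher and 46.6% lower, at a median log2 of 0.38, and the groups did not overlap for 98.8%. The gene lists below are described by their counts and medians beside those values. Groups that do not overlap are thus the rule among named genes, and such remarks below support nothing on their own. Genes of a list that carry no name here were not counted, so a count such as 17 of 17 covers named genes alone and never a whole family. Where a list was chosen after values were seen, this is said beside it, and its direction was in view when it was chosen. The lists without that remark were also drawn up with earlier results of these data known. Their counts are therefore not independent of these data either. Among the 12377 probe sets outside the tables, 3447 passed (27.9%), 1419 higher and 2028 lower, and 533 of them changed at least 2-fold (4.31%), 74 higher (0.598%) and 459 lower (3.71%).

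The largest rises among named genes with a signal of at least 100 on all 4 arrays were those of enzymes that cut the extracellular matrix. The gelatinase gene mmp9 had signals of 4090.2 and 3913 in ERbeta2 MO against 138 and 138 in coMO, and 174 and 142 in uninjected embryos. The collagenase gene mmp13a had 2395 and 1891 in ERbeta2 MO against 156 and 190.0 in coMO. Both ERbeta2 MO arrays stood far above all control arrays for both genes, at log2 differences of 4.71 ± 0.15 and 3.51 ± 0.18 (SE), with limma adjusted p = 2.86e-11 and 5.79e-09. timp2b, which encodes an inhibitor of such proteases, was higher on both of its probe sets, by 3.50 and 2.85 on the log2 scale. The membrane-bound protease mmp14a was the exception, with signals of 194 and 118 in ERbeta2 MO against 273 and 308 in coMO. It was lower at log2 -0.87 (limma adjusted p = 0.0095). It did not pass when arrays were scaled on the hybridization controls (log2 -0.35, limma adjusted p = 0.365) or on the poly-A spikes (log2 0.06, limma adjusted p = 0.896). Nor did it pass without the second ERbeta2 MO array (log2 -0.55) or without the second coMO array (log2 -0.79).

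The other large rises came from several kinds of gene. odc1, the first enzyme of polyamine synthesis, had signals of 3353 and 3246 in ERbeta2 MO against 446 and 525 in coMO. slc4a1a, which exchanges anions across the red cell membrane, had 1539.8 and 1596 in ERbeta2 MO against 221 and 174 in coMO. riok3, a kinase of small ribosomal subunit maturation, had 4729.5 and 4834 in ERbeta2 MO against 812 and 956 in coMO. For these 3 genes the groups lay far apart, at log2 differences of 2.73, 2.90 and 2.42. The GTP-binding protein gene gtpbp1 was higher at log2 2.66, the cytokine signalling inhibitor socs3b at 2.63, the nucleolar gene ccdc86 at 2.48, the muscle gene xirp1, whose product binds actin, at 2.46 and the terminal complement component c6.2 at 2.39. The leucine zipper transcription factors fosl2, atf3 and atf5b, described with their family below, belong to the same set.

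Among named genes with a signal of at least 100 on all 4 arrays, the largest falls were in genes of the eye, the pancreas, cartilage, muscle and skin. Genes whose signal dropped below that level in ERbeta2 MO, such as c3a.6 below, are not ranked here. The blue cone opsin opn1sw2 had signals of 139 and 115 in ERbeta2 MO against 9688 and 12087 in coMO, and 12425 and 13233 in uninjected embryos. The trypsin gene prss1 had 231 and 235 in ERbeta2 MO against 7769 and 7938 in coMO. The cartilage matrix gene matn1 had 459 and 535 in ERbeta2 MO against 12609 and 14127 in coMO. The groups were far apart for each, at log2 differences of -6.25, -4.98 and -4.71, and uninjected arrays lay close to coMO. ckmt2a, a creatine kinase of muscle mitochondria, stood at -3.99 on the log2 scale, the smooth muscle actin acta2 at -3.91, the membrane protein gene tm4sf4 at -3.85, the collagen col10a1a of hypertrophic cartilage at -3.78, the pancreatic elastase ela2l at -3.77 and the phosducin gene pdcb, which regulates transducin in photoreceptors, at -3.62. The same set held plac8.1 at -3.59, the keratin krt15 at -3.51, the myelin basic protein gene mbpa at -3.47, the actin-severing scinla at -3.42 and the skin keratin krt1-19e at -3.25. All of these falls kept their direction under the 4 other scalings.

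**Figure D3:**
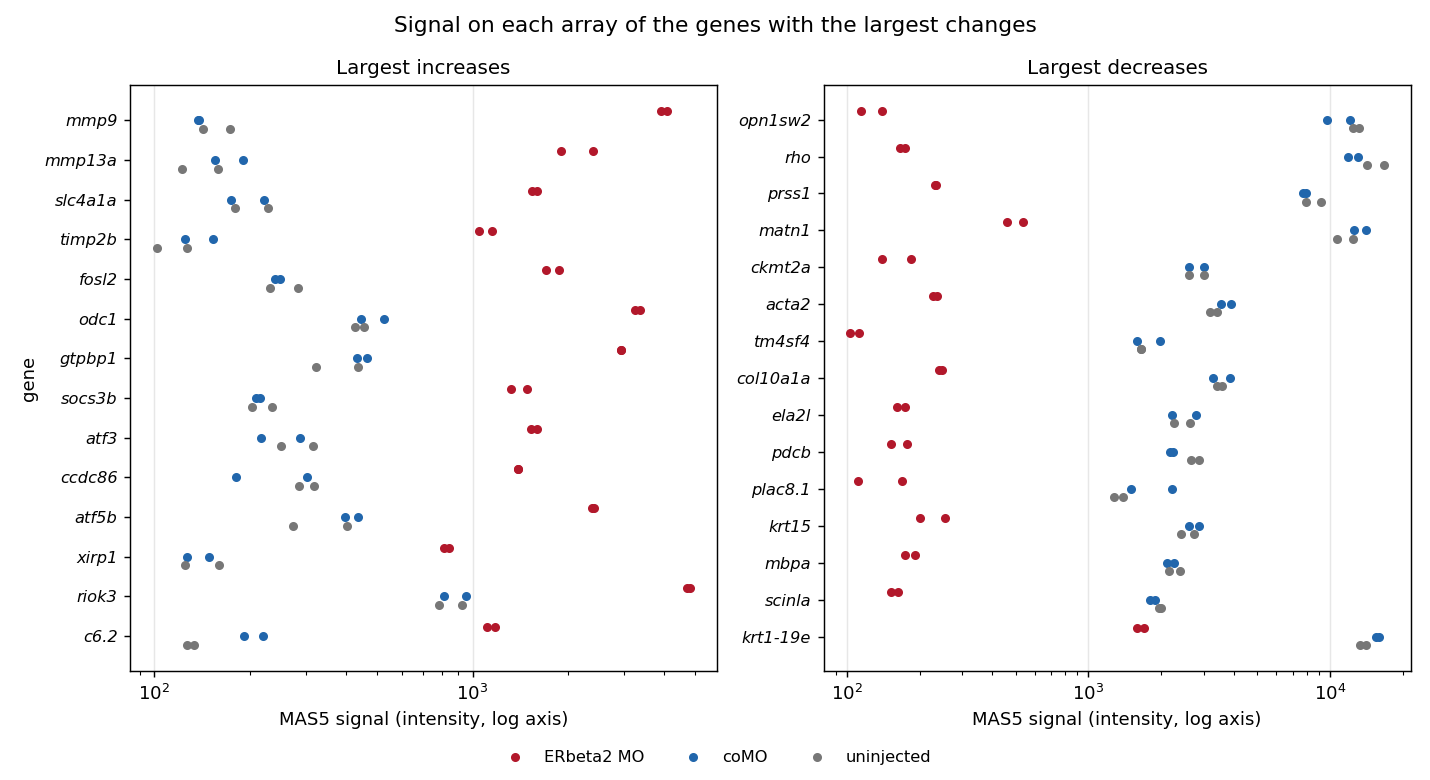
Each point is the MAS5 signal of 1 array on a log axis, for the 14 named rises (left) and 15 falls (right), with ERbeta2 MO in red, coMO in blue and uninjected embryos in grey. In every row both red points lie outside the range of the other 4 arrays, and blue and grey points lie close together.

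Genes that build ribosomes were higher in ERbeta2 MO almost without exception. Ribosomes are assembled in the nucleolus, where RNA polymerase I makes the precursor RNA and a chain of processing factors cuts, modifies and folds it into the small and the large subunit. Of 89 named probe sets, which stand for 80 of the 140 genes on the list, 87 rose and 0 fell, at a median log2 of 1.35. That compares with 47% higher among all named probe sets. Under the other scalings the number that rose stayed between 87 and 89 and the number that fell at 0. The 2 that did not pass were las1l, with 135 and 129 in ERbeta2 MO against 145 and 114 in coMO, and urb2, with 97.7 and 93.2 against 49.2 and 54.3 (limma adjusted p = 0.928 and 0.0528).

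In the first role, RNA polymerase I and its transcript, all 17 probe sets rose, at log2 0.85 to 1.98. polr1c, a subunit shared by RNA polymerases I and III, had signals of 693 and 782 in ERbeta2 MO against 229 and 181 in coMO (log2 1.78 ± 0.19, SE). dkc1, the pseudouridine synthase of the box H/ACA particles, had 1337 and 1405 in ERbeta2 MO against 384 and 411 in coMO. nop58, a core protein of the box C/D particles, had 2401 and 2484 in ERbeta2 MO against 699 and 921 in coMO. In all 3 genes the lower ERbeta2 MO array exceeded the higher coMO array by more than 2-fold. mybbp1a, a nucleolar repressor of transcription, was higher on each of 3 probe sets, at log2 1.98, 1.65 and 1.34. The abundant nucleolar protein genes npm1a, a histone chaperone, and ncl, nucleolin, rose by 1.26 and 0.94.

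Among factors of the small subunit processome all 33 probe sets rose, at a median of 1.52. wdr43 had signals of 3025 and 3072 in ERbeta2 MO against 893 and 947 in coMO, and wdr3 was higher on both of its probe sets, at log2 1.77 and 1.75. The processome components utp3, imp4 and noc4l stood at 1.81, 1.78 and 2.05, with imp4 at 1.404 on its other probe set. tsr2, an escort of a small subunit protein, stood at 1.73. Among factors of the large subunit 37 of 39 probe sets rose, at a median of 1.25. sdad1 had 1911 and 1931 in ERbeta2 MO against 436 and 365 in coMO, and gnl3l, a nucleolar GTPase, 1318 and 1509 against 387 and 322. eif6, which keeps the large subunit from joining too early, had 2683 and 2364 in ERbeta2 MO against 684 and 738 in coMO. The groups did not overlap in any of these, and rrp1, ddx27 and pes rose by 1.94, 1.86 and 1.86. exosc10, the nuclear catalytic subunit of the RNA exosome, rose by 1.56.

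Genes for the other parts of the translation apparatus moved the same way. All 17 named genes of the 53 on the list of tRNA synthetases, which charge tRNAs with their amino acids, rose, at a median log2 of 1.298. The phenylalanine enzyme farsa had signals of 2709 and 3013 in ERbeta2 MO against 727 and 595 in coMO. The isoleucine enzyme iars1 had 2094 and 2573 in ERbeta2 MO against 505 and 606 in coMO. Both ERbeta2 MO arrays lay above 3 times the coMO arrays for these genes, whose limma adjusted p were 5.39e-08 and 1.99e-07, and rars1 and eprs1, for arginine and for glutamate and proline, rose by 1.87 and 1.86. RNA polymerase III makes tRNAs and 5S rRNA, and its list, chosen after values were seen, had 9 of 9 named probe sets higher, among them the subunit polr3e at 1.47 and ssb, which binds new transcripts of this polymerase, at 1.15. The largest there, the initiation factor bdp1, had signals of 47.3 and 144 in ERbeta2 MO against 4.17 and 5.78 in coMO, so its log2 of 2.26 depends on the offset of 16. Enzymes that modify tRNA and rRNA, another list chosen after values were seen, were higher for 24 of 26 probe sets, with the tRNA methyltransferase trmt1 at 1.71 and thumpd3 at 1.63. trmt9b fell by 1.02, and did not pass with the hybridization controls (log2 -0.50) or the poly-A spikes (log2 -0.096).

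Of 27 probe sets for translation factors 22 rose and 4 fell, at a median of 1.08. abcf1, which works with the initiation factor that brings the first tRNA, had signals of 6662 and 7640.5 in ERbeta2 MO against 1845 and 1783 in coMO, and the scaffold eif4g1a 1916 and 2172 against 709 and 762. The fallers were other members of the same families. eef2l2, a relative of elongation factor 2, had 621 and 596 in ERbeta2 MO against 2447 and 2478 in coMO on its brighter probe set, while eef2a.1 had 234 and 237 against 78.8 and 49.3. pabpc1a, which binds poly-A tails, had 1427 and 1278 in ERbeta2 MO against 4253 and 5188 in coMO. Their log2 differences were -1.99, 1.68 and -1.79, and eif4e3, a relative of the cap-binding factor, fell by 1.22. Scaled on the poly-A spikes, 23 of the translation factor probe sets passed as higher and 3 as lower.

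Lists for the traffic between nucleus and cytoplasm, the mitochondrial ribosome and mitochondrial import were all chosen after values were seen, and their counts support nothing on their own. All 12 named nucleoporin genes, the building blocks of the nuclear pore, rose, at 0.53 to 1.35, with pom121 at 1.35 and nup188 at 1.17. All 10 named probe sets of nuclear carriers rose too, with ipo8 at 1.37 and rcc1, the exchange factor of Ran, at 1.15 and 1.09. All 11 named genes of the mitochondrial ribosome rose, at a median of 0.99, mrpl42 having 1177 and 1249 in ERbeta2 MO against 457 and 621 in coMO. Of the import machinery of mitochondria 5 of 5 named genes rose, with tomm20a, a receptor of the outer membrane, at 1.15. Within these lists the largest difference was that of ipo8.

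Of 16 spliceosome probe sets 14 rose and 1 fell, and of 13 for splicing regulators and RNA binding proteins 12 rose and 1 fell, at medians of 0.96 and 1.00. lsm12b, which has an RNA-binding fold of the Sm type, had signals of 2543 and 2503 in ERbeta2 MO against 717 and 558 in coMO. snu13b, shared by the spliceosome and the box C/D particles, had 4532 and 3585 in ERbeta2 MO against 1323 and 1685 in coMO. The groups were far apart in both. Of 138 genes with several named probe sets 3 had probe sets that passed in opposite directions, and 2 of the 3 handle RNA. igf2bp1, an mRNA-binding protein, was higher on 2 probe sets (0.93 and 1.00) and lower on the third (-0.95), where the coMO arrays had 1116 and 565. That call ended under 5 other settings, among them without the first coMO array (log2 -0.47, limma adjusted p = 0.266). papola, the poly-A polymerase, was higher on 1 (1.01) and lower on the other (-0.70). The lower one did not pass with the hybridization controls (log2 -0.18), with the poly-A spikes (log2 0.22) or without the second coMO array (log2 -0.50). Such genes have no single direction here.

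Supply of nucleotides and polyamines followed, with exceptions. In purine synthesis 4 of 5 probe sets rose, with paics at 8046 and 6564 in ERbeta2 MO against 2539.7 and 2759 in coMO. In pyrimidine synthesis 5 of 6 rose, with ctps1a, which makes CTP, at log2 1.596 and the salvage kinase uck2a at 1.80. Of 7 polyamine probe sets 4 rose, among them odc1 above and spermidine synthase, srm, at 1.41, and 2 fell. azin1b, an inhibitor of the antizyme that targets ornithine decarboxylase, had 309 and 274 in ERbeta2 MO against 765 and 1131 in coMO.

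The few named DNA replication genes were lower. All 7 named probe sets, for 6 of 59 listed genes, fell, at a median of -1.45, against 46.6% lower among named probe sets. The helicase subunit mcm3 had signals of 58.1 and 62.2 in ERbeta2 MO against 197 and 187 in coMO, and mcm6 had 35.8 and 53.2 against 152 and 163. Thymidine kinase, tk1, had 7.69 and 36.1 in ERbeta2 MO against 109 and 166 in coMO. These signals are low, 1 ERbeta2 MO array of tk1 lies below the offset of 16, and the groups do not overlap. top2a, the topoisomerase of dividing cells, fell on both probe sets, by 2.11 and 1.29. Of 6 cell division genes 5 fell, among them the proliferation marker mki67 (-1.07) and stmn1b (-1.45), a microtubule regulator of neurons. cdkn1ca, a cyclin-dependent kinase inhibitor, had 1287 and 1212 in ERbeta2 MO against 514 and 527 in coMO. Only 2 of the 7 replication probe sets and 0 of the cell division probe sets passed as lower with the poly-A spikes.

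**Figure D4:**
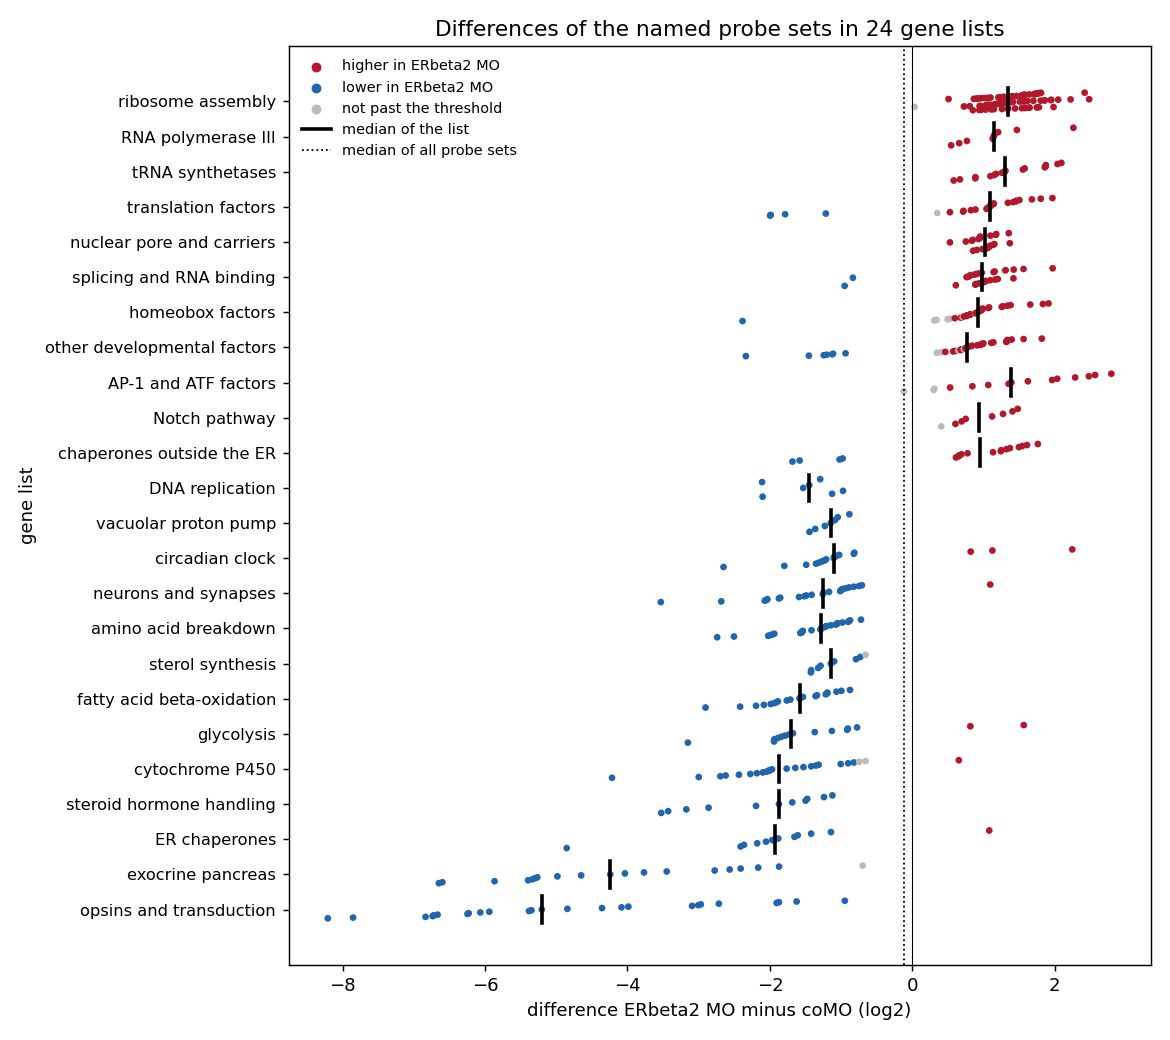
Each point is the log2 difference of 1 named probe set, ERbeta2 MO minus coMO, in 24 gene lists, coloured by call, with a bar at each list's median and a dotted line at the median of all probe sets (-0.12). Ribosome assembly to nuclear pore lists lie mostly above 0, though 4 of 27 translation factor probe sets fell. Metabolic, neuronal, pancreatic and photoreceptor lists lie mostly below it. The RNA polymerase III, nuclear pore, proton pump, amino acid breakdown, fatty acid oxidation and steroid hormone lists were chosen after values were seen. The median of all named probe sets is 0.38, and the split solute carrier list is not drawn.

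Transcription factors of early development were mostly higher. Homeobox genes, which lay out the body axis and the regions of the brain, had 25 of 32 probe sets higher and 1 lower, at a median log2 of 0.92. isl2b, a factor of motor and sensory neurons, had signals of 4888 and 5780.0 in ERbeta2 MO against 1426 and 1377 in coMO (log2 1.91 ± 0.12, SE). tgif1, a corepressor, had 1391 and 1738 in ERbeta2 MO against 443 and 526 in coMO, and prrx1a, of limb and fin mesenchyme, 1745 and 1688 against 604 and 699.6. Both ERbeta2 MO arrays were above 2 times either coMO array in each of the 3. The Hox genes hoxb3a, hoxb9a and hoxc9a, which set position along the trunk, rose by 0.97, 1.33 and 0.97, and hoxb9a did not pass on its other probe set (0.52). pax6b, an eye and pancreas factor, was the exception, with 21.3 and 6.78 in ERbeta2 MO against 123 and 150.4 in coMO (log2 -2.38, limma adjusted p = 3.12e-05).

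In the other developmental families 27 of 38 probe sets rose and 7 fell, at a median of 0.77. sox11b, of neural progenitors and young neurons, was higher on 3 probe sets, at 1.82, 1.32 and 1.00. insm1b and neurod4, of early neurons, rose by 1.33 each, foxd3, of neural crest, by 1.14, ebf2 by 1.56 and sall4, a factor of pluripotent and progenitor cells, by 1.34. Among the fallers 4 of 7 were members of the neurod family. neurod6a had 112 and 120.0 in ERbeta2 MO against 614 and 689 in coMO, and neurod2 had 72.8 and 92.1 against 233 and 273. neurod4 had 829 and 815 in ERbeta2 MO against 306 and 327 in coMO, so members of 1 family moved in opposite directions. Under the poly-A scaling 31 of the 38 passed as higher and 1 as lower. Among chromatin genes 9 of 12 probe sets rose, led by hmga1a, an architectural protein of embryonic and proliferating cells, with 431 and 448 in ERbeta2 MO against 61.6 and 61.7 in coMO, and chd7, a remodeller, rose by 1.65, while hmgn3 fell by 1.101.

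The AP-1 and ATF factors, leucine zipper proteins that are switched on by stress, injury and amino acid shortage, had 12 of 15 probe sets higher and 0 lower, at a median of 1.39. fosl2 had signals of 1706 and 1872 in ERbeta2 MO against 249 and 239.7 in coMO on its brightest probe set, and 663 and 727 against 107 and 157 on the next. atf3 had 1524 and 1590.2 in ERbeta2 MO against 288 and 216 in coMO. atf4a, which drives the response to amino acid shortage, had 8495 and 8925 in ERbeta2 MO against 2064 and 2393 in coMO. The arrays of the 2 groups lay far apart in all 3, and junbb, junba and jun rose by 2.03, 1.35 and 1.07. atf5b rose by 2.48 and atf4b by 1.39. Other immediate early genes were split, 7 probe sets higher and 7 lower. cebpb, mycn and gadd45aa were higher, at 1.44, 1.51 and 1.80, and klf2a, which responds to blood flow, and the phosphatase dusp2 were lower, at -1.37 and -1.38. mycn stood at 0.93 on its other probe set. Of these 14, 7 passed as higher and 0 as lower with the poly-A spikes.

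Of 13 probe sets for interferon responses, cytokine signalling and antigen presentation, a list chosen after values were seen, 9 rose and 3 fell. isg15, a ubiquitin-like protein made in response to interferon, had signals of 694 and 711 in ERbeta2 MO against 56.5 and 52 in coMO, and irf7, a factor of that response, 467 and 401 against 107 and 87. stat3 had 485 and 469.5 in ERbeta2 MO against 90.1 and 194 in coMO. Their log2 differences were 3.35, 2.00 and 1.72, the groups did not overlap, and the coMO arrays of stat3 were 2-fold apart. stat2, the partner of interferon signalling, went the other way, with 46.7 and 36.1 in ERbeta2 MO against 119.8 and 135 in coMO. The lysozyme gene lyz of myeloid cells had 425 and 484 in ERbeta2 MO against 1144 and 1029 in coMO. In the leukocyte list that holds lyz, 2 of 4 named probe sets rose and 2 fell, at a median of -0.18. With the poly-A spikes 2 of those 4 passed as higher and 0 as lower.

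Chaperones divided by compartment. Outside the endoplasmic reticulum 14 of 18 probe sets rose and 4 fell, at a median of 0.95. The small heat shock gene hspb8 had signals of 614 and 804 in ERbeta2 MO against 277 and 174 in coMO on 1 probe set, and 1156 and 1375 against 475 and 401 on the other. The inducible hsp70.3 had 624 and 611 in ERbeta2 MO against 253 and 249 in coMO. unc45b, the myosin chaperone, and dnajc21, a ribosome assembly cochaperone, rose by 1.76 and 1.54. Against these, hsp90aa1.2 fell on both of its probe sets, by 1.58 and 0.98, and hspa4l, a nucleotide exchange factor of the Hsp70 family, by 1.68.

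In the endoplasmic reticulum, where secreted proteins fold, 11 of 12 probe sets fell and 1 rose, at a median of -1.92. pdia2, a disulfide isomerase of the pancreas, had signals of 6.83 and 5.47 in ERbeta2 MO against 618 and 630.4 in coMO. hsp90b1, the Hsp90 of that compartment, had 521 and 504 in ERbeta2 MO against 2294 and 3181 in coMO. calr3b, a calreticulin, had 1061 and 1314 in ERbeta2 MO against 5379 and 5428 in coMO on its brighter probe set. Each fell more than 4-fold, at log2 -4.85, -2.36 and -2.18, and pdia2 lies below the offset of 16 in ERbeta2 MO. The riser was the third probe set of calr, at 1.08, while its other 2 fell by 1.88 and 1.65, so calr is the remaining gene whose probe sets disagree. Scaling on the poly-A spikes left 9 of the 12 passing as lower. Digestive enzyme genes of the pancreas also fell, on 18 of 19 probe sets, at a median of -4.24. With the poly-A spikes 18 passed as lower. Any link between these falls and those of the chaperones was not tested.

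Genes that make and use metabolic fuel in liver, gut and muscle were lower across most lists. Cytochrome P450 enzymes, which oxidise drugs, steroids and fatty acids, had 21 of 24 probe sets lower and 1 higher, at a median of -1.87. cyp8b1.1, of bile acid synthesis, had signals of 13.8 and 20.8 in ERbeta2 MO against 631 and 570.2 in coMO on its lower probe set, and 64.9 and 62.2 against 504 and 495 on the other. cyp3a65, a drug-metabolising enzyme of gut and liver, had 35.8 and 46.9 in ERbeta2 MO against 226 and 299 in coMO. The groups did not overlap in either, and the 2 probe sets of cyp8b1.1 gave log2 differences of -4.22 and -2.70. cyp26b1, which breaks down retinoic acid, was the riser, with 943 and 727 in ERbeta2 MO against 626 and 433 in coMO (log2 0.65, limma adjusted p = 0.0221), and without the second coMO array it no longer passed (log2 0.39, limma adjusted p = 0.22). cyp1a, the target of the dioxin receptor, fell by 0.90 and lay above 0 with the poly-A spikes. Under that scaling 12 of the 24 passed as lower. All 8 named conjugation genes fell as well, 4 of them also with the poly-A spikes, led by the glucuronosyl transferase ugt1ab, with 76.8 and 89.5 in ERbeta2 MO against 1373 and 1206 in coMO.

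A list for the handling of steroid hormones, chosen after values were seen, was lower on 11 of 11 probe sets, at a median of -1.87. Most of its genes carry or convert steroids, but it also takes in pgrmc1, which is of another kind. shbg, the plasma carrier of sex steroids, had signals of 42.7 and 28.2 in ERbeta2 MO against 523 and 542 in coMO on the first of its probe sets, and 4.41 and 32.2 against 192 and 369.9 on the second. srd5a2a, a steroid 5-alpha reductase, had 45.3 and 54.8 in ERbeta2 MO against 444 and 483 in coMO. pgrmc1, a heme-binding membrane protein, had 883 and 944 in ERbeta2 MO against 2691 and 2450.0 in coMO. All 3 fell on each of their probe sets, by 3.43 and 3.17, by 3.53 and 2.86, and by 1.87 and 1.48. hsd17b4, an enzyme of peroxisomes that also oxidises estradiol, fell by 2.19 and hsd11b1la, of glucocorticoid conversion, by 1.12. The poly-A scaling left 7 of the 11 passing as lower.

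Vitellogenins, the yolk precursors that estrogen induces in the liver of adult fish, were measured by 2 probe sets that each match several vitellogenin loci. The first had signals of 425 and 378 in ERbeta2 MO against 54.9 and 51.8 in coMO, and 9.3 and 27.6 in uninjected embryos. The second had 302 and 348 in ERbeta2 MO against 33.2 and 58.3 in coMO. Both were higher in ERbeta2 MO, at log2 2.59 and 2.49 (limma adjusted p = 1.12e-05 and 1.01e-04), and which locus the signal comes from cannot be told. These probe sets were chosen after their values were seen.

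The hatching gland, a transient tissue that releases enzymes to digest the egg envelope, showed a rise in the same arrays. he1.1, the hatching enzyme, had signals of 963 and 861 in ERbeta2 MO against 65.1 and 7.95 in coMO, and 16.1 and 23.2 in uninjected embryos (log2 4.39 ± 0.42, SE). he1.2 did not pass, with 71 and 87.4 in ERbeta2 MO against 38 and 42.2 in coMO. The embryonic globin hbbe3 had 4445 and 5168 in ERbeta2 MO against 21.7 and 43.3 in coMO, and hbbe2 had 5340.4 and 5714 against 2161 and 2253. The ERbeta2 MO arrays were far above both control groups for he1.1 and hbbe3. Of 15 red cell probe sets 13 rose and 2 fell, and uros, an enzyme of heme synthesis, was lower at -1.32.

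Fatty acid oxidation, a list chosen after values were seen, had 21 of 21 named probe sets lower, at a median of -1.58. acadm, the medium chain dehydrogenase, had signals of 727 and 738 in ERbeta2 MO against 3087 and 3239.8 in coMO. scp2a, a lipid carrier of peroxisomes, had 448 and 392 in ERbeta2 MO against 2430.0 and 2193 in coMO. The carnitine enzyme cpt2, which feeds mitochondria, had 288 and 236 in ERbeta2 MO against 953 and 832 in coMO. The groups lay far apart in each, and decr1 fell on 3 probe sets, by 2.90, 1.99 and 1.91. Lipid carriers fell furthest: fabp10a of liver had 21.3 and 12 in ERbeta2 MO against 2502 and 2164 in coMO, and fabp6 of ileum 23.3 and 25.9 against 1796 and 1919. Of the 21 oxidation probe sets 12 passed as lower with the poly-A spikes.

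Amino acid breakdown, a list chosen after values were seen, was lower on 26 of 26 named probe sets, at a median of -1.28. Of the tyrosine pathway, hgd had signals of 112 and 135 in ERbeta2 MO against 811 and 1032 in coMO, tat had 49.6 and 44.8 against 364 and 322, and hpda had 168 and 136 against 741 and 595. These are 3 of the steps that take tyrosine apart, and their log2 differences were -2.74, -2.51 and -2.02. kmo, of tryptophan breakdown, fell on 3 probe sets, by 1.96, 1.94 and 1.28, and the alanine transaminase gpt by 2.00. Of the 26 probe sets 6 passed as lower with the poly-A spikes.

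In glycolysis 14 of 16 probe sets fell and 2 rose, at a median of -1.70. aldoca, a brain and retina aldolase, had signals of 15.2 and 21.6 in ERbeta2 MO against 379 and 218 in coMO. The muscle phosphofructokinase pfkma had 245 and 214 in ERbeta2 MO against 951 and 834 in coMO, and lactate dehydrogenase, ldha, fell by 1.68. The risers were the regulatory enzymes hk2, a hexokinase, with 498 and 489 in ERbeta2 MO against 259.7 and 289 in coMO, and pfkfb3, which makes the activator of phosphofructokinase, with 991 and 1208 against 330.4 and 391. vegfaa and egln3, which are induced by low oxygen, rose by 1.46 and 1.298, and igfbp1a, a binding protein of growth factors, by 2.30 and 2.11. All 7 gluconeogenesis probe sets fell, with fbp1b at -1.81. Under the poly-A scaling 9 of the 16 glycolysis and 3 of the 7 gluconeogenesis probe sets passed as lower.

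Sterol synthesis fell on 8 of 9 probe sets, at a median of -1.14, with hmgcs1, an early enzyme, at -1.29 and insig1, the sterol sensor partner, at -1.43 and -1.098. None of the 9 passed as lower with the poly-A spikes, while 5 did with the hybridization controls. With quantile normalization and with median centring 8 passed as lower. The vacuolar proton pump, a list chosen after values were seen, was alike, with 7 of 7 probe sets lower as deposited, atp6v1e1b at -1.36 among them. With the poly-A spikes 0 passed as lower, with the hybridization controls 6, and with quantile normalization or median centring 7. Of 7 named genes of oxidative stress and metals 6 fell, and 2 of them passed as lower with the poly-A spikes. nfe2l2a, the master factor of the antioxidant response, had 60.3 and 53.7 in ERbeta2 MO against 350.0 and 306 in coMO. The reductase nqo1 fell by 1.28 and catalase, cat, by 1.52, neither of them passing with the poly-A spikes. The peroxiredoxin prdx1 rose by 1.00.

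Plasma proteins of the complement and coagulation systems were lower in 13 of 15 probe sets, and in 5 with the poly-A spikes. c3a.6, a form of complement component C3, had signals of 82.6 and 87.3 in ERbeta2 MO against 13637 and 16269 in coMO (log2 -7.21). mbl2, a lectin that starts the cascade, had 22.2 and 17.5 in ERbeta2 MO against 314 and 292 in coMO. c6.2 had 1179 and 1108 in ERbeta2 MO against 220.4 and 191 in coMO, and cfb, a factor of the alternative pathway, rose by 0.82. Members of the same cascade thus lay on both sides. All 7 coagulation probe sets fell, with factor VII, f7i, at -1.86 and antithrombin, serpinc1, at -1.28, and 2 of them passed as lower with the poly-A spikes.

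Solute carriers were split, 12 of 38 probe sets higher and 25 lower. Transporters of the absorbing gut and kidney were among the falls. slc10a2, which takes up bile acids, had 36.8 and 44.7 in ERbeta2 MO against 271 and 304 in coMO, and slc34a2a, for phosphate, 29.6 and 19.4 against 210.4 and 246. The peptide carrier slc15a1b had 1.32 and 18 in ERbeta2 MO against 144 and 98.4 in coMO, and the amino acid carrier slc6a19b 18 and 14 against 157 and 100.2. slc25a3a, the phosphate carrier of muscle mitochondria, fell furthest, with 77.3 and 14.5 in ERbeta2 MO against 1337 and 1287 in coMO, with its 2 ERbeta2 MO arrays far apart. The GABA transporters slc6a1b and slc6a1a of brain fell by 1.87 and 1.86. Beside slc4a1a, the risers took in slc16a6b, a monocarboxylate carrier (1.86), slc2a11b, a sugar carrier family member (1.68), and slc20a1a, a phosphate carrier (1.198). Scaled on the poly-A spikes, 13 passed as higher and 9 as lower.

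In the nervous system 24 of 25 neuronal probe sets fell and 1 rose, at a median of -1.25. syt5a, a synaptic vesicle protein, had signals of 51 and 71.9 in ERbeta2 MO against 773 and 982 in coMO, and the neurofilament-like inaa 60.6 and 63.7 against 508 and 465. gad1b, which makes GABA, had 481 and 578 in ERbeta2 MO against 2391 and 2049 in coMO. elavl3, an RNA-binding protein of newly formed neurons, was the riser, with 1475 and 1481 in ERbeta2 MO against 657 and 713 in coMO. The oligodendrocyte factors olig2 and olig4 rose by 0.57 and 0.96. olig2 did not pass without the first ERbeta2 MO array (log2 0.45, limma adjusted p = 0.153) or without the first coMO array (log2 0.53, limma adjusted p = 0.0613). The myelin genes mbpa and plp1b fell, with plp1b at 45.7 and 64 in ERbeta2 MO against 388 and 439 in coMO. Of the 25 neuronal probe sets 9 passed as lower with the poly-A spikes.

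The hair cell and lateral line list, closest to the series title, had 5 of 8 probe sets lower and 3 higher. Among all named probe sets 46.6% were lower and 47% higher. In this list 4 probe sets passed as lower with the poly-A spikes. Its lowest member, at log2 -3.51, was krt15, which the keratin list counts too. cabp5b, a calcium-binding protein of sensory cells, had signals of 5.13 and 20.6 in ERbeta2 MO against 282 and 294 in coMO, and pvalb8, a parvalbumin of hair cells, 263 and 272 against 2331 and 2520.1. otofa, otoferlin of the hair cell synapse, had 152 and 143 in ERbeta2 MO against 399 and 360.3 in coMO. It did not pass with the poly-A spikes (log2 -0.345, limma adjusted p = 0.356). The groups did not overlap for cabp5b, pvalb8 or otofa, as in 98.8% of named probe sets. The risers were genes of the migrating lateral line primordium: fgf10a had 376 and 436 in ERbeta2 MO against 162 and 159 in coMO, lef1 had 445 and 409.6 against 268 and 273, and the chemokine receptor cxcr4b had 161 and 226 against 95.8 and 107. Their log2 differences were 1.25, 0.63 and 0.82. Without the second ERbeta2 MO array cxcr4b did not pass (log2 0.59, limma adjusted p = 0.201), nor did lef1 without the first (log2 0.57, limma adjusted p = 0.0671). These genes are also used in other tissues, so the arrays do not give their level in the lateral line. In the ear, from a list chosen after values were seen, oc90, a matrix protein of otoliths, had 173 and 230.5 in ERbeta2 MO against 30.9 and 38.2 in coMO, and otomp, another, had 406 and 263 against 674 and 836.

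Notch signalling, by which a cell keeps its neighbour from the same fate, had 7 of 8 probe sets higher and 0 lower. The receptor notch1a had signals of 214 and 243 in ERbeta2 MO against 77.7 and 74.7 in coMO, and the ligands dla 1666 and 1547 against 613 and 699, and jag1b 488 and 521 against 237 and 211. The ligand dlb passed on 1 probe set (1.48) and not on the other (0.41). The repressor gene her9, also on this list, rose by 0.75, and whether it follows Notch in these embryos was not tested. Of 16 Wnt, FGF, BMP and Hedgehog probe sets 9 rose and 4 fell. The ligands shha and wnt4 rose, at 1.29 and 1.66, and spry2, an inhibitor that FGF signalling induces, fell by 1.596 and 1.46 on its probe sets.

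Skin, connective tissue and muscle changed within their families. Keratins had 10 of 12 probe sets lower, 6 with the poly-A spikes, with krt5 at 3586 and 3413 in ERbeta2 MO against 17235 and 17348 in coMO, and krt18a.1, a keratin of simple epithelium, went the other way with 10458 and 10931 against 3312 and 3368. Of the annexin pair anxa2b had 56.5 and 60.5 in ERbeta2 MO against 654 and 783 in coMO, and anxa2a 3041 and 2807 against 874 and 900.0. The cadherins cdh1 and cdh2 rose by 1.44 and 1.51, and cldn15la, a claudin of the gut, fell by 3.11. Members of the same family thus lay far apart in opposite directions. Collagens had 9 of 10 probe sets lower and 2 with the poly-A spikes. col1a2 stood at -1.61 and -1.24, the smaller of which did not pass with those spikes (-0.32, limma adjusted p = 0.297), and the fibronectin fn1b had 3016 and 4172 in ERbeta2 MO against 1060.5 and 817 in coMO. and2 and and3, the actinodins of the fin fold fibres, a list chosen after values were seen, fell by 2.51 and 2.88. In muscle ttn.2, a titin, had 16475 and 18016 in ERbeta2 MO against 5797 and 5638 in coMO and desma, desmin, rose by 1.63, while the tropomyosin tpm1 fell by 2.86 and 1.22 and myoglobin, mb, by 1.83.

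Clock genes were lower on 14 of 17 probe sets. nr1d2b, a repressor of the clock, had 80.3 and 52.6 in ERbeta2 MO against 416 and 588 in coMO on its lower probe set, and per2, which light induces, fell by 1.35 and 1.103. bmal2, an activator, had 184 and 241 in ERbeta2 MO against 37.5 and 26.8 in coMO. Under the poly-A scaling 2 of the 17 passed as lower and 3 as higher. The time of day at sampling was not in the labels used here.

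Sums over defining markers place these changes against the cell types of the embryo. In each sum the brightest probe sets weigh most, so sums are compared between arrays and not between cell types. The summed signal of 8 photoreceptor markers was 610 and 645 in ERbeta2 MO against 69361 and 77221 in coMO, and that of 5 pancreas markers 572 and 533 against 22821 and 25558. The 3 hepatocyte markers summed to 7203 and 7035 in ERbeta2 MO against 30053 and 33828 in coMO, and the 3 enterocyte markers to 1078 and 978 against 10226 and 10047. The 4 hair cell and neuromast markers, calb2b, krt15, otofa and pvalb8, summed to 1524 and 1425 in ERbeta2 MO against 9354 and 9127 in coMO. Of these, krt15 is counted in the keratin list too. The sum of 6 red cell markers was higher, at 89473 and 89670 in ERbeta2 MO against 44742 and 43013 in coMO. The 2 hatching gland markers summed to 1033 and 949 in ERbeta2 MO against 103 and 50.1 in coMO, of which 1, he1.1, passed as higher. Skeletal muscle, cartilage and glia rest on 1 named marker each, and the longer skeletal muscle list had 5 of 12 probe sets higher and 7 lower. All 10 photoreceptor, 5 pancreas, 4 hepatocyte and 3 enterocyte probe sets passed as lower and none is at 0, and whether the metabolic, chaperone and transporter lists moved with these tissues or within them was not tested.

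**Figure D5:**
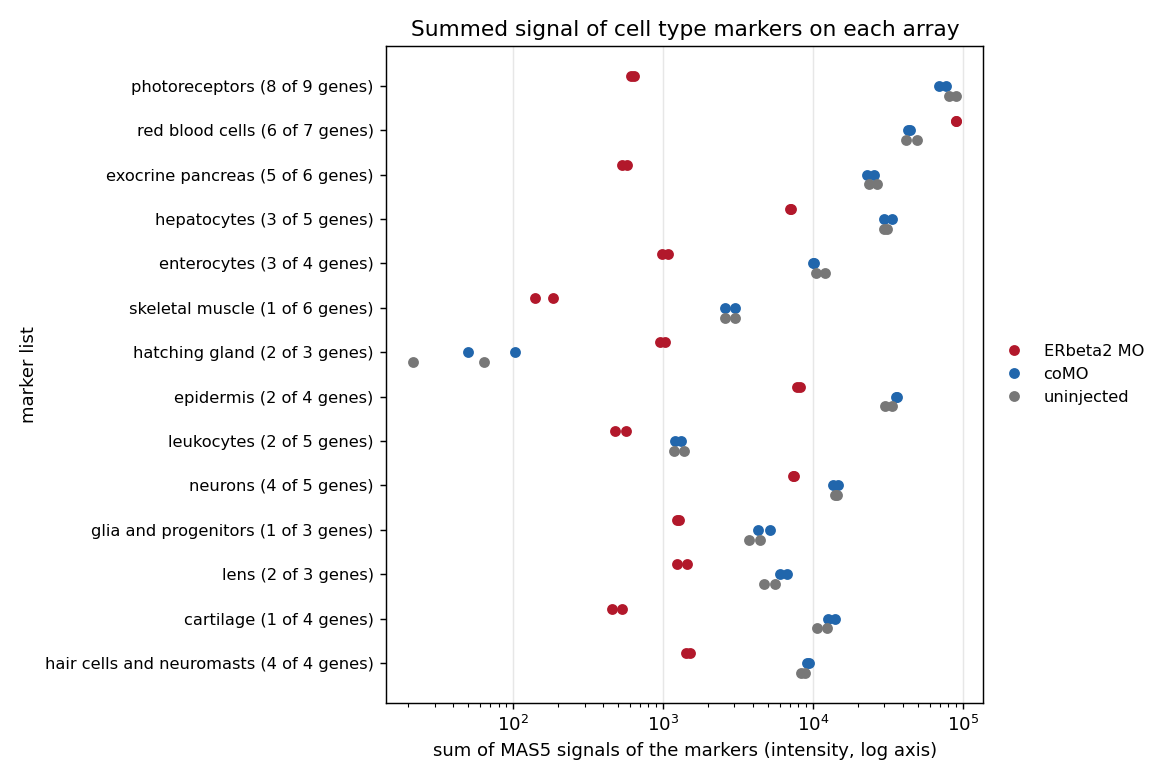
Each point is the sum of the MAS5 signals of a cell type's named markers on 1 array, on a log axis, with ERbeta2 MO in red, coMO in blue and uninjected embryos in grey. Red points lie above the others for red blood cells and the hatching gland and below them for the other 12 cell types. Of these 12, 3 (skeletal muscle, cartilage and glia) rest on 1 marker. Leukocytes rest on 2 of 5 markers, and the longer leukocyte list had 2 probe sets higher and 2 lower. Of the 5 neuron probe sets 1, that of elavl3, rose. Photoreceptors stood at 610 and 645 in ERbeta2 MO against 69361 and 77221 in coMO.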

How the data were processed

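Total RNA of whole embryos was hybridized to Affymetrix zebrafish arrays, 1 array per sample. The deposited value table holds 1 intensity per probe set, a MAS5 signal on a linear scale per the submitters' processing notes. Its version is not given in the sources used here, nor are its settings. Fold change values, linear ratios per the file headers, stand in 3 other deposited tables. None of those 2723, 2666 and 21 values lies between 0.5 and 2, and they were read for that check alone. The number of value columns without a sample was 0.

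The 3 tables were the source of gene names. Of 3125 listed probe sets that are not controls 2325 had 1 gene, 219 several and 581 none, and an informative symbol was found for 1821. Symbols were updated with a RefSeq gene table, through the gene identifier (1664 probe sets), the current symbol (41) or an older one (197), and 423 kept the deposited symbol.

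Intensities entered as log2(signal + 16), without another normalization or a filter on low signals. The model, limma 3.58.1 under R 4.3.3 with eBayes trend, was fitted to all 6 arrays, with 3 residual degrees of freedom, and tested ERbeta2 MO minus coMO. A call needed an adjusted p of 0.05 by Benjamini-Hochberg over all 15502 probe sets. Where the text gives an SE, it is that of limma. A permutation test of single genes cannot go below p = 0.333 with 2 arrays against 2, so none was run. The number of arrays limits the precision. The procedure was tested on simulated data with planted differences. Python 3.11.15 with pandas 2.3.3 and numpy 2.4.6 made the summaries.

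Alternatives covered filters on low signals, offsets of 1 and 64, 4 scalings, the 4 arrays of the comparison alone, a replicate block, no trend, each array left out and a 2-fold criterion.

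Genes were named as the 15 largest increases and 15 largest decreases among called probe sets with a signal of at least 100 on all 4 arrays. To these were added up to 6 members of each role in each gene list by smallest p, called members that went against their role, genes whose probe sets were called in opposite directions, and the called probe sets of lowest and highest signal. Any gene named outside these rules was chosen after its values were seen. The members and the lists were chosen with earlier results of these data known. A further 14 lists were added, and 3 genes were moved or dropped from their list, after values were seen. A few genes and 1 list are not reported here.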

Additional observations from a re-analysis of the deposited data

Results flagged for a closer look

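In control probe sets outside the main measurement, the 3' signal of a message relative to its 5' signal was higher in ERbeta2 MO than in coMO embryos. The ratio of 3' to 5' signal for GAPDH was 2.14 and 2.15 on the ERbeta2 MO arrays, against 1.66 and 1.34 on the coMO arrays and 1.47 and 1.35 on the uninjected arrays. For acta1 the same ratio was 13.6 and 11.6 on the ERbeta2 MO arrays, against 7.64 and 5.72 on the coMO arrays and 5.41 and 10.04 on the uninjected arrays. In both genes the ERbeta2 MO arrays lay above all 4 others, and no test was made. With groups of 2 no single array was tested as an outlier.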

How the results depend on the processing

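The total of 6333 called probe sets stayed within 1.5 times under every setting run except 2. It was 3743 when the 60% with the lowest mean signal were left out, which also left out the probe sets themselves (1594 lower), and 2514 when a call also needed a 2-fold difference (859 higher and 1655 lower). Scaling moved the split. Scaled on the hybridization controls, 5480 were higher and 1106 lower, and scaled on the poly-A spikes 8002 and 506. The share of calls that were higher was 44.1% as deposited, 52.4% with the 40% filter, 57.4% with the 60% filter, 52.6% with quantile normalization, 59.4% with median centring, 83.2% with the hybridization controls and 94.1% with the poly-A spikes. When 1 array was left out, which leaves its group with 1 array assumed to vary like the others, the total was 4409 to 5246, with 1970 to 2406 higher and 2439 to 2840 lower.

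With the replicate number as a replicate block 6424 were called. Deviations from the group means correlated at 0.011, -0.012 and 0.033 between same-numbered arrays of each pair of groups. With 2 arrays in a group the deviations mirror each other, so each pair of groups gives a single value. Such values cannot show whether same-numbered arrays shared a spawning or a batch.

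Of 273 probe sets of the genes named in the text, 269 kept their direction in every setting that held them. The filters on low signals left some of them out. Most were named for a large change or a small p in this comparison, which favours a stable direction. Some called list members that are not named here turned with the poly-A spikes. With the poly-A spikes cyp1a stood at 0.026, mmp14a at 0.0558 and 1 probe set of papola at 0.224, and without coMO replicate 2 las1l, which was not called, stood at -0.123, the lowest of its values with 1 array left out, against a highest of 0.185. With the poly-A spikes 35 further probe sets kept their direction and no longer passed. Scaling on the hybridization controls ended 8 calls. They were those of cyp1a, mki67, mmp14a and trmt9b, and of 1 probe set each of hsp90aa1.2, igf2bp1, insig1 and papola. Calls that ended without ERbeta2 MO replicate 1 were those of lef1 (0.573), cyp26b1 (0.468), olig2 (0.445) and the probe set of igf2bp1 that fell (-0.816). Without ERbeta2 MO replicate 2 bdp1 (1.59), cxcr4b (0.594) and mmp14a (-0.548) did not pass. Without coMO replicate 1 cxcr4b (0.75), olig2 (0.534) and igf2bp1 (-0.47) did not pass, nor did cyp26b1 (0.394), mmp14a (-0.79) and papola (-0.503) without coMO replicate 2. The cause was not tested for any of these. The arrays give a relative intensity, so low signals such as those of bdp1 and tk1 are limited by the background.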
